A study of Homo sapiens with 12 samples.

Results

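The HOX genes are the homeobox transcription factor genes of the 4 clusters HOXA, HOXB, HOXC and HOXD, and their expression was followed in the Merkel cell carcinoma line MKL-1 under inhibition of EZH2. Members were taken by name, as every row of the authors' gene table whose symbol is HOX, a cluster letter and a number, without the antisense transcripts. This gave 39 of the 28813 genes in the table, of which 11 lie in HOXA, 10 in HOXB, 9 in HOXC and 9 in HOXD. MKL-1 is an established line from a Merkel cell carcinoma, a neuroendocrine skin cancer, and carries Merkel cell polyomavirus. Cells were exposed for 6 or 12 days to 3 µM EPZ011989, a small-molecule inhibitor of the enzyme EZH2, dissolved in ethanol at 1%, or for the same times to 1% ethanol alone as vehicle. PolyA-selected RNA was sequenced as 3 libraries in each of the groups EPZ011989 day 6, Vehicle day 6, EPZ011989 day 12 and Vehicle day 12, so that 12 libraries of this 1 line were available. Whether the 3 libraries of a group came from separate cultures is not stated, so a p-value reflects the spread among these libraries, and that spread may be technical.

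HOX proteins bind DNA through a homeodomain and specify position along the body axis. Within a cluster the genes carry paralogue numbers that follow their order on the chromosome, and genes with low numbers are used in anterior and those with high numbers in posterior parts of the embryo. Cells outside a gene's domain keep it silent through Polycomb repressive complex 2, whose catalytic subunit EZH2 methylates histone H3, and HOX clusters are among the best known targets of this mark. The pattern of active and silent HOX genes is often kept in adult cells and in the tumours that arise from them.

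The libraries held 15994997 to 20866370 estimated reads. Values are given in CPM, read counts made relative to the TMM-scaled size of each library, where 3 reads in a library corresponded to 0.147 to 0.193 CPM, or per transcript length in TPM where genes are set against each other. Genes with too few reads for a test were removed, which left 15015 genes, among them 26 HOX genes. Of these 26, HOXD11 and HOXD13 reached the minimum of 0.545 CPM in 3 libraries through EPZ011989 libraries alone, and the other 24 reached it in vehicle libraries too. A gene is called where its adjusted p in edgeR's quasi-likelihood test was under 0.05, and log2 fold changes are EPZ011989 over vehicle, ± standard error, unless 2 days are compared. EZH2 mRNA itself averaged 139 ± 2.84 CPM in EPZ011989 and 157 ± 2.36 CPM in vehicle libraries at day 6 (log2 fold change -0.18 ± 0.05, edgeR adjusted p = 0.0113) and 60.0 ± 2.44 CPM in EPZ011989 and 175 ± 9.68 CPM in vehicle libraries at day 12 (log2 fold change -1.54 ± 0.05, edgeR adjusted p = 2.50e-12; SD, n = 3), which does not measure the enzyme's inhibition. The 9 Merkel cell carcinoma markers on the list used to check the line, among them ATOH1, SOX2 and INSM1, were all tested. Their levels summed to 2445 to 2534 CPM in EPZ011989 and 2842 to 2939 CPM in vehicle libraries at day 6, and to 2512 to 2722 CPM in EPZ011989 and 2597 to 2831 CPM in vehicle libraries at day 12. Of the 9, 1 was called higher and 5 lower at day 6, and 2 higher and 4 lower at day 12. Over all tested genes 17.2% were called higher and 17.0% lower at day 6, and 33.7% higher and 33.3% lower at day 12. In the third principal component of all tested genes, Vehicle day 12 replicate 1 lay at 51.4, against 14 and -7.00 for the other libraries of its group, and the HOX calls of the treatment contrasts that change without it are given below.

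HOXA lies on chromosome 7 on the minus strand, HOXB on chromosome 17 at 48528526 to 48729178 on the minus strand, HOXC on chromosome 12 at 53938765 to 54056030 on the plus strand and HOXD on chromosome 2 at 176092891 to 176190907 on the plus strand (GRCh38, GENCODE annotation). In each cluster the gene numbered 13 is therefore the first in the direction of transcription. The sequences of 5 promoters are shown, from genes that rose (HOXD13, HOXD11), genes that fell (HOXA9, HOXD3) and a gene with no read in any library (HOXB1). Each is the stretch of 250 bases before a RefSeq start in GRCh38.p14, written in the direction of transcription, and capitals mark CpG dinucleotides. For HOXA9, HOXD3 and HOXD11 that start lies inside the longer gene span of the GENCODE annotation, and these windows hold no annotated exon base.
HOXD13, chr2:176092471-176092720, plus strand: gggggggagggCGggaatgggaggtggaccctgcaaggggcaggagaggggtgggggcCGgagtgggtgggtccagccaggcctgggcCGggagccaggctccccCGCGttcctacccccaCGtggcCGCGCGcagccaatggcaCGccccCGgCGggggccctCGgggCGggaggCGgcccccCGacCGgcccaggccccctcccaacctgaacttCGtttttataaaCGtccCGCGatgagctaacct
HOXD11, chr2:176107030-176107279, plus strand: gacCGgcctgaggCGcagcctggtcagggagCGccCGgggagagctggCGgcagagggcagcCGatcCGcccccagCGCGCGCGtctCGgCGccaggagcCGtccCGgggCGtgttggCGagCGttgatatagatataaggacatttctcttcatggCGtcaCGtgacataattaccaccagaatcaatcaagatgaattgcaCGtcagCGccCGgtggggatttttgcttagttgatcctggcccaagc
HOXA9, chr7:27165538-27165787, minus strand: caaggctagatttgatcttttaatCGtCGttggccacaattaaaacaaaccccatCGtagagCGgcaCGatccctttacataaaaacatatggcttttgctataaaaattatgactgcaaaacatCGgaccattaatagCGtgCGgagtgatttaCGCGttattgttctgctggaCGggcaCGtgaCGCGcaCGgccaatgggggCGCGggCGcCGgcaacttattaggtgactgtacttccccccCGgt
HOXD3, chr2:176157057-176157306, plus strand: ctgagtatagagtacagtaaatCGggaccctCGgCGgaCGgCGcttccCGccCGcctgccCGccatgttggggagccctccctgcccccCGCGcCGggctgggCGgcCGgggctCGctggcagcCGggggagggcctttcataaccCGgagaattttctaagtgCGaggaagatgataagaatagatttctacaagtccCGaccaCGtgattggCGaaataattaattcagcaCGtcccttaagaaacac
HOXB1, chr17:48531012-48531261, minus strand: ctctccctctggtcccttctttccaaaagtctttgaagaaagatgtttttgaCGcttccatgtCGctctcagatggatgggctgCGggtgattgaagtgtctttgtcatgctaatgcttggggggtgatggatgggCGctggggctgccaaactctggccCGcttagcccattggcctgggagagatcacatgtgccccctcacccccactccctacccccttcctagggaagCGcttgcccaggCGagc

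The rising and the falling genes shown had CpG counts close to each other, 21 in the HOXD13 and 23 in the HOXD11 window against 20 in the HOXA9 and 21 in the HOXD3 window, and HOXB1 had 7. The RefSeq table held 27 start windows for 20 of the 39 HOX genes (7 of them for HOXA3, and 1 window listed for both HOXC4 and HOXC5). The 26 distinct HOX windows had a median of 19.5 CpG, and the median over all 34943 distinct windows in the table was 11. Searched on both strands, the TATA box letters TATAAA were present in 5 of the 26 HOX windows (19.2%) and in 10.8% of all windows. Both the rising HOXD13 and the falling HOXA9 window held them. The homeodomain core TAATTA was found in 2 HOX windows (7.69%, HOXD3 and HOXD11) and in 4.35% of all windows. The PBX-HOX letters TGATNNAT occurred in 3 HOX windows (11.5%, HOXA2, HOXB1 and HOXD11) and in 6.49% of all windows, and the YY1 letters CCATNTT in 5 HOX windows (19.2%) and in 11.6% of all windows. Matches of different motifs may overlap, and a match describes the letters only.

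In vehicle the HOX genes divided by cluster. Taking the 6 vehicle libraries of both days, 22 genes were expressed (a mean of at least 1 CPM), namely 10 in HOXA, 7 in HOXC and 5 in HOXD. Another 6 were low, HOXA11, HOXB3, HOXB9, HOXD10, HOXD11 and HOXD13. The other 11 were silent, with fewer than 3 reads in each vehicle library, and these were 8 of the 10 HOXB genes, HOXC11, HOXC12 and HOXD12. By position, 5 of 8 anterior genes (numbers 1 to 3), 10 of 15 central genes (numbers 4 to 8) and 7 of 16 posterior genes (numbers 9 to 13) were expressed. The anterior and central genes that were not expressed were all HOXB genes. In HOXA, HOXC and HOXD every low or silent gene was thus posterior.

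**Figure D1:**
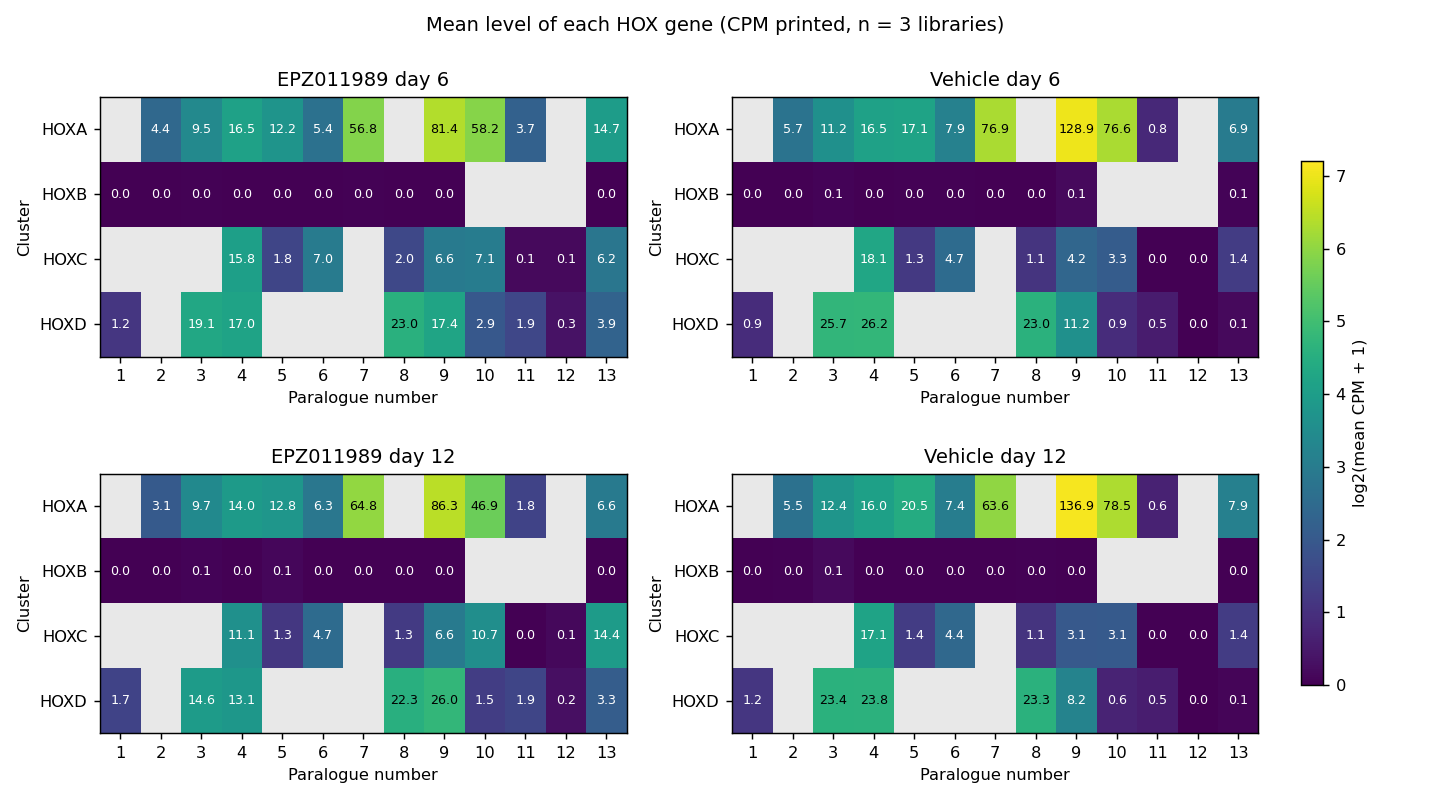
Mean level of each HOX gene in the 4 groups, with the cluster on the vertical and the paralogue number on the horizontal axis. Colour is log2 of mean CPM + 1, the printed value is the mean CPM of 3 libraries, and grey marks numbers that a cluster does not have or that are not shown. The HOXB row is dark in every group, HOXA9 is the brightest cell in each panel, and the right end of the HOXC and HOXD rows is brighter in the EPZ011989 panels.

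Per length, HOXA9, a regulator of blood progenitors that is best known from leukaemia, was far above all others in vehicle at 186 ± 8.93 TPM (SD, n = 6 libraries, 3 of each day), and its lowest vehicle library, at 169.7 TPM, lay above the highest library of every other HOX gene. HOXA10 at 66.2 ± 7.60 TPM and HOXA7 at 61 ± 7.89 TPM came next and overlapped each other across libraries. HOXD4 followed at 39.4 ± 2.63 TPM, with no library in the range of its neighbours HOXA7 (46.6 to 69.7 TPM) and HOXD3 (19.2 to 32.4 TPM). HOXD3, HOXD8, HOXA5, HOXA4, HOXC4, HOXA3 and HOXA6 had means between 24.7 and 16.1 TPM, each overlapping the next in that order. The highest HOXC gene was thus HOXC4, at 17.4 ± 1.69 TPM, and the highest HOXB gene, HOXB3, averaged 0.0692 TPM. Below HOXD9 at 9.47 ± 1.65 TPM the expressed genes had means between 5.31 TPM (HOXA2) and 0.716 TPM (HOXC8).

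HOXB stayed without measurable expression in every group. Its 10 genes together drew 43 reads over the 12 libraries, 16 in EPZ011989 and 27 in vehicle libraries. No HOXB gene had more than 5 reads in any library, HOXB1 and HOXB4 had none at all, and no HOXB gene was tested. Summed over the cluster this was 1 to 5 reads in each EPZ011989 library and 1 to 8 reads in each vehicle library. A change under the equivalent of about 3 reads a library would not have been detectable at this depth.

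At day 6, EPZ011989 raised 10 of the 26 tested HOX genes and lowered 7, and 9 did not pass, in a comparison in which 17.2% of all tested genes were called higher and 17.0% lower. The median log2 fold change of the 26 was 0.27, and that of all tested genes was -0.02. The rises were mostly posterior and the falls mostly not. Of 11 tested posterior genes 9 rose and 2 fell, while of 15 anterior and central genes 1 rose and 5 fell. HOXD11 and HOXD13, among the 9, entered the test through EPZ011989 libraries alone, so that their being higher was in part set by the filter, and without them 7 of 9 posterior genes rose and 2 fell. In every called gene the 3 EPZ011989 libraries all lay on 1 side of the 3 vehicle libraries, which follows in part from the call itself. The same was seen in HOXC5 and HOXD1, which did not pass. Over all tested genes, called or not, it held upward in 24.0% and downward in 27.0%.

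At day 12, when 33.7% of all tested genes were called higher and 33.3% lower, 9 HOX genes were higher, 7 lower and 10 did not pass, so the share called higher was about that of all genes. The position within the cluster was much as at day 6, with 8 posterior genes higher, 2 lower and 1 not passing, and 1 anterior or central gene higher and 5 lower. Without HOXD11 and HOXD13, 6 of 9 posterior genes were higher. The treatment contrasts of the days have no library in common. In the called genes, and in HOXA3, which did not pass, the groups did not overlap. Over all tested genes, called or not, this held upward in 35.5% and downward in 33.6%. Without Vehicle day 12 replicate 1, 8 HOX genes were higher and 8 lower at day 12. HOXD10 was then no longer called, at 1.01, edgeR adjusted p = 0.103, and HOXA3 was called lower, at -0.43, edgeR adjusted p = 0.0425.

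**Figure D2:**
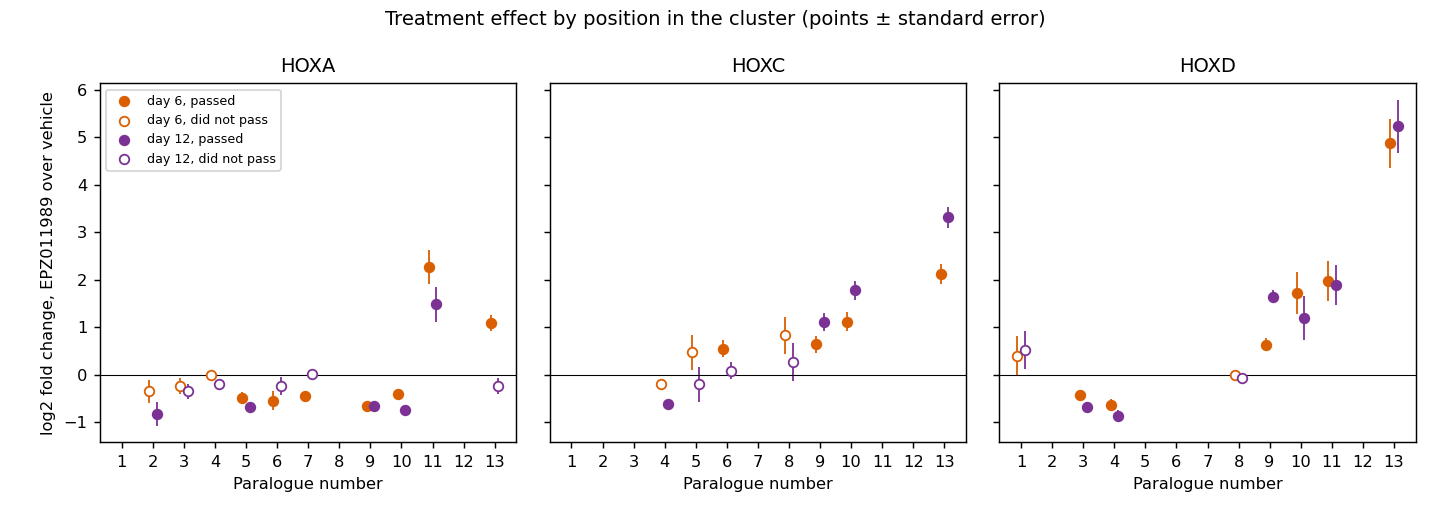
Log2 fold change, EPZ011989 over vehicle, of the tested HOX genes shown, by paralogue number in HOXA, HOXC and HOXD, with standard errors as bars, orange for day 6 and purple for day 12. Filled points passed edgeR's test. In HOXC the points climb with the number, in HOXD they reach 5.24 for HOXD13 at day 12, and in HOXA no such order is seen.

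Among the clusters the order along the chromosome was clearest in HOXC. Spearman's rho between paralogue number and log2 fold change was 0.96 in HOXC (7 genes) and 0.83 in HOXD (8 genes) at day 6, and 1.00 in HOXC and 0.81 in HOXD at day 12. In HOXA (11 genes) it was 0.05 at day 6 and 0.08 at day 12. The HOXD values rest in part on HOXD11 and HOXD13, and over its other 6 genes rho was 0.60 at day 6 and 0.54 at day 12. The HOXC values rest in part on HOXC5, HOXC6 and HOXC8, at -0.20 ± 0.37, 0.09 ± 0.19 and 0.27 ± 0.39 at day 12. None of these was called at day 12 and their standard errors overlap, so the order among them is not settled. HOXC4, HOXC5 and HOXC6 share 17.8%, 59.9% and 15.7% of their exon bases with other genes on their strand. HOXC11 and HOXC12 were not tested. In HOXD the rank correlation with the mean level over all vehicle libraries was larger in size, at -0.98 at day 6 and -0.93 at day 12 (8 genes, HOXD11 and HOXD13 among them). In HOXC it was smaller in size than that with the number, at -0.46 at day 6 and -0.32 at day 12. In HOXA it was -0.73 at day 6 and -0.44 at day 12. That level includes the vehicle libraries of the contrast itself, so a negative value is in part built in. These values describe genes of the same libraries, which are not independent replicates.

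HOXD13, which patterns digits and the genital tubercle and is the first gene of its cluster, had the largest fold change of all HOX genes at both days. At day 6 it stood at 3.97, 3.46 and 4.27 CPM in the EPZ011989 libraries, against 0.166, 0 and 0.211 CPM in the vehicle libraries, and at day 12 at 3.12, 2.82 and 4.10 CPM in the EPZ011989 libraries, against 0.0644, 0.112 and 0.0644 CPM in the vehicle libraries. The lowest EPZ011989 library was at 2.82 CPM while no vehicle library exceeded 0.211 CPM, so the groups were far apart. Over 3 libraries each this was 209 reads in EPZ011989 against 7 in vehicle at day 6, a ratio of 31.0 with an exact 95% counting interval of 14.8 to 78.2, and 190 against 4 reads at day 12, a ratio of 40.6 (15.6 to 150.5). HOXD13 entered the test through EPZ011989 libraries alone, so that its being higher was in part set by the filter. The fitted log2 fold changes were 4.88 ± 0.51 (edgeR adjusted p = 4.91e-06) and 5.24 ± 0.56 (edgeR adjusted p = 1.05e-06). Even so, HOXD13 remained a gene of modest level in treated cells.

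HOXD12, next to HOXD13, had 7, 2 and 6 reads in the EPZ011989 libraries and 0 in each vehicle library at day 6. It had 0, 5 and 8 reads in EPZ011989 and again 0 in each vehicle library at day 12. Against a floor of 3 reads in each vehicle library this was at least 1.68-fold higher at day 6 and at least 1.26-fold higher at day 12, and the gene had too few reads for the test.

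HOXD11, a gene of forearm and kidney development in the mouse, had 1.91, 2.37 and 1.33 CPM in the EPZ011989 libraries, against 0.497, 0.489 and 0.423 CPM in the vehicle libraries at day 6. Its levels at day 12 were 1.59, 2.11 and 1.85 CPM in the EPZ011989 libraries, against 0.322, 0.393 and 0.773 CPM in the vehicle libraries. The lowest EPZ011989 library was above the highest vehicle library on each day. Its log2 fold change was 1.98 ± 0.41 at day 6 (edgeR adjusted p = 0.00201) and 1.89 ± 0.42 at day 12 (edgeR adjusted p = 0.00104). Like HOXD13, it entered the test through EPZ011989 libraries alone, so that its being higher was in part set by the filter.

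HOXD10, which takes part in specifying lumbar motor neurons, was at 2.69, 3.01 and 3.06 CPM in the EPZ011989 libraries, against 0.442, 0.652 and 1.53 CPM in the vehicle libraries at day 6. The values at day 12 were 1.33, 1.26 and 1.85 CPM in the EPZ011989 libraries, against 0.451, 0.505 and 0.967 CPM in the vehicle libraries. In each vehicle group 1 library was higher than the other two, and the groups still did not overlap. The gene rose by 1.73 ± 0.44 at day 6 (edgeR adjusted p = 0.00720) and by 1.2 ± 0.47 at day 12 (edgeR adjusted p = 0.0336). The call of day 12 was also lost without EPZ011989 day 12 replicate 3 (1.01) or Vehicle day 12 replicate 2 (1.05). HOXD10 shares 16.8% of its exon bases with HOXD11 on the same strand, and HOXD11 shares 21.4% with HOXD10. Reads of these genes could thus be divided between them.

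HOXD9, another gene of limb and spinal cord patterning, was the posterior HOXD gene with the highest level in vehicle. It reached 18.0, 18.0 and 16.1 CPM in the EPZ011989 libraries, against 12.0, 9.67 and 11.9 CPM in the vehicle libraries at day 6. By day 12 it was at 26.9, 22.9 and 28.1 CPM in the EPZ011989 libraries, against 6.89, 9.87 and 7.99 CPM in the vehicle libraries. EPZ011989 libraries were the higher ones at both days, and those of day 12 stood above those of day 6, whereas the vehicle libraries of day 12 were mostly below those of day 6. The log2 fold change was 1.65 ± 0.14 at day 12 (edgeR adjusted p = 7.48e-08) and 0.64 ± 0.13 at day 6 (edgeR adjusted p = 0.00213), and the effect at day 12 exceeded that at day 6 by 1.01 ± 0.19 (edgeR adjusted p = 5.76e-04).

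**Figure D3:**
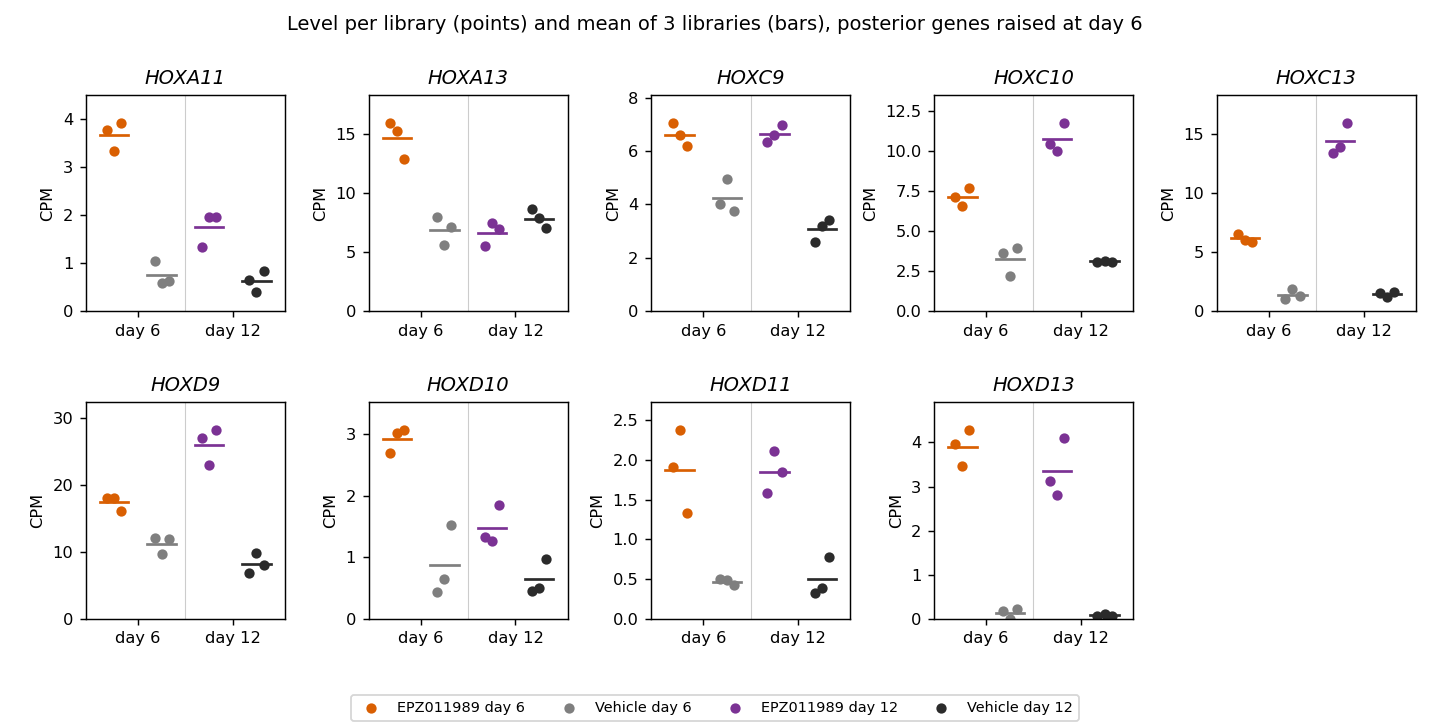
CPM per library (points) and mean of 3 libraries (bars) of the 9 posterior genes called higher at day 6, for EPZ011989 and vehicle at day 6 and day 12. Each panel has its own axis from 0. HOXC10, HOXC13 and HOXD9 are highest in EPZ011989 at day 12, while HOXA13 is high only in EPZ011989 at day 6, at a mean of 14.7 CPM, against 6.91 CPM in vehicle at day 6.

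Beyond HOXD9 the direction turned. HOXD8, the next gene, was level at 23.0 CPM in EPZ011989 and 23.0 CPM in vehicle libraries at day 6 and at 22.3 CPM in EPZ011989 and 23.3 CPM in vehicle at day 12, and did not pass at day 6 (0.00 ± 0.10) or day 12 (-0.07 ± 0.10). HOXD4 and HOXD3, which act in the hindbrain and cervical region, fell at both days. HOXD1 at the far end was low, between 0.773 and 2.56 CPM over all 12 libraries, and did not pass. The called rises in HOXD thus came from HOXD13 to HOXD9, at 176092891 to 176124937, and the called falls from HOXD4 and HOXD3, at 176136612 to 176173102.

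HOXD4 was measured at 18.3, 16.4 and 16.2 CPM in the EPZ011989 libraries, against 25.9, 25.5 and 27.1 CPM in the vehicle libraries at day 6. At day 12 the values were 12.9, 15.1 and 11.4 CPM in the EPZ011989 libraries, against 21.2, 25.0 and 25.3 CPM in the vehicle libraries. No EPZ011989 library reached the lowest vehicle library of its day. HOXD4 thus had log2 fold changes of -0.63 ± 0.11 at day 6 (edgeR adjusted p = 4.44e-04) and -0.86 ± 0.11 at day 12 (edgeR adjusted p = 7.16e-06).

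HOXD3 was at 20.4, 16.4 and 20.3 CPM in the EPZ011989 libraries, against 25.5, 26.2 and 25.5 CPM in the vehicle libraries at day 6. At day 12 the levels were 13.4, 14.5 and 15.9 CPM in the EPZ011989 libraries, against 21.9, 23.7 and 24.6 CPM in the vehicle libraries. Here too all EPZ011989 libraries were the lower ones. HOXD3 fell by 0.43 ± 0.10 on the log2 scale at day 6 (edgeR adjusted p = 0.00375) and by 0.68 ± 0.10 at day 12 (edgeR adjusted p = 3.09e-05). The exons of HOXD4 (80.5% of bases) and HOXD3 (62.2%) overlap those of another annotated gene on the same strand, AC009336.2, so that reads of these genes could be divided between them.

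In HOXC the 3 tested posterior genes rose at both days. HOXC13, required for hair and nail formation, was the strongest, at 6.57, 6.03 and 5.89 CPM in the EPZ011989 libraries, against 1.05, 1.85 and 1.32 CPM in the vehicle libraries at day 6. Its level at day 12 was 13.4, 13.9 and 15.9 CPM in the EPZ011989 libraries, against 1.55, 1.18 and 1.61 CPM in the vehicle libraries. All EPZ011989 libraries of day 12 were above all of day 6, and those were above every vehicle library. The log2 fold change was 3.31 ± 0.21 at day 12 (edgeR adjusted p = 4.22e-09) and 2.13 ± 0.21 at day 6 (edgeR adjusted p = 2.98e-06), a difference of 1.19 ± 0.30 (edgeR adjusted p = 0.00475).

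HOXC10, like HOXD10 a gene of the lumbar spinal cord and hindlimb, was at 7.15, 6.54 and 7.68 CPM in the EPZ011989 libraries, against 3.64, 2.23 and 3.96 CPM in the vehicle libraries at day 6. Its values at day 12 were 10.4, 10.0 and 11.7 CPM in the EPZ011989 libraries, against 3.09, 3.14 and 3.09 CPM in the vehicle libraries. Vehicle libraries were close to each other at day 12 and all far below the EPZ011989 ones. In log2 fold change this was 1.12 ± 0.20 (edgeR adjusted p = 5.66e-04) at day 6 and 1.78 ± 0.20 (edgeR adjusted p = 1.82e-06) at day 12.

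HOXC9, which in mice sets thoracic motor neuron identity, was at 7.06, 6.61 and 6.18 CPM in the EPZ011989 libraries, against 4.03, 4.94 and 3.75 CPM in the vehicle libraries at day 6. For day 12 the levels were 6.35, 6.59 and 6.97 CPM in the EPZ011989 libraries, against 2.58, 3.20 and 3.42 CPM in the vehicle libraries. The treated level was much the same at both days and the groups were separate at each. The gene rose by 0.64 ± 0.18 at day 6 (edgeR adjusted p = 0.0125) and by 1.11 ± 0.18 at day 12 (edgeR adjusted p = 8.72e-05). The call of day 6 was lost when transcript lengths were used as an offset (0.37, edgeR adjusted p = 0.351) and in the authors' table (0.43 with a pseudocount of 1).

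The silent pair HOXC12 and HOXC11 lies between HOXC13 and HOXC10. HOXC12 had 8 reads in EPZ011989 and 1 read in vehicle libraries at day 6, a ratio of 8.32 with an exact 95% counting interval of 1.12 to 369, and 7 reads in EPZ011989 and 0 in vehicle libraries at day 12. HOXC11 had 7 reads in EPZ011989 and 1 read in vehicle libraries at day 6, a ratio of 7.28 (0.935 to 328), and none in either group at day 12. Neither had enough reads for the test, and these counts are too few to rank the pair.

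The central HOXC genes moved less. HOXC4 was the highest of the cluster, at 16.5, 17.2 and 13.7 CPM in the EPZ011989 libraries, against 19.0, 16.6 and 18.5 CPM in the vehicle libraries at day 6, where it did not pass. At day 12 it stood at 10.3, 11.5 and 11.6 CPM in the EPZ011989 libraries, against 16.8, 18.2 and 16.2 CPM in the vehicle libraries. All EPZ011989 libraries of day 12 were below all others of the gene. It fell by 0.62 ± 0.11 on the log2 scale at day 12 (edgeR adjusted p = 1.57e-04), against a change of -0.19 ± 0.11 at day 6, and the difference between the days was -0.43 ± 0.15 (edgeR adjusted p = 0.0319). That difference was not called with transcript lengths as an offset (-0.26, edgeR adjusted p = 0.343), in the authors' table (-0.24 with a pseudocount of 1) or without any 1 of 5 single libraries, where it was between -0.40 and -0.37.

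HOXC6 was at 6.81, 7.38 and 6.70 CPM in the EPZ011989 libraries, against 4.25, 5.16 and 4.81 CPM in the vehicle libraries at day 6. Its day 12 values were 4.35, 4.93 and 4.78 CPM in the EPZ011989 libraries, against 3.86, 3.87 and 5.48 CPM in the vehicle libraries. The groups were separate at day 6 and overlapped at day 12. HOXC6 rose by 0.55 ± 0.18 at day 6 (edgeR adjusted p = 0.0306), and the value at day 12 was 0.09 ± 0.19. Its day 6 call was lost without any 1 of 5 single libraries, with log2 fold changes of 0.50 to 0.58, with transcript lengths as an offset (0.52), with no low-count filter (0.57) and in the authors' table (0.52 with a pseudocount of 1). HOXC5 (1.26 to 1.81 CPM as group means) and HOXC8 (1.10 to 1.95 CPM) did not pass at either day, and HOXC5 shares 59.9% of its exon bases with other genes on its strand.

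HOXA behaved differently at its posterior end, where HOXA9 and HOXA10 fell while HOXA11 and HOXA13 rose at day 6. HOXA9, the highest HOX gene of the line, was at 84.8, 81.5 and 77.9 CPM in the EPZ011989 libraries, against 131, 126 and 129.8 CPM in the vehicle libraries at day 6. At day 12 it was at 86.7, 87.4 and 84.9 CPM in the EPZ011989 libraries, against 135, 135 and 140.2 CPM in the vehicle libraries. The replicates were tight and the groups wide apart at both days. It fell by 0.66 ± 0.05 on the log2 scale at day 6 (edgeR adjusted p = 6.17e-08) and again by 0.66 ± 0.05 at day 12 (edgeR adjusted p = 8.64e-09).

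HOXA10, which patterns the uterus, was at 60.2, 59.5 and 55.0 CPM in the EPZ011989 libraries, against 77.9, 79.1 and 72.9 CPM in the vehicle libraries at day 6. Values at day 12 were 47.7, 46.7 and 46.3 CPM in the EPZ011989 libraries, against 74.7, 76.7 and 84.0 CPM in the vehicle libraries. Every treated library was below every vehicle library, and the treated libraries of day 12 were the lowest. It fell by 0.74 ± 0.06 at day 12 (edgeR adjusted p = 8.46e-08) and by 0.40 ± 0.06 at day 6 (edgeR adjusted p = 2.08e-04), and the day 12 effect was lower by 0.35 ± 0.09 (edgeR adjusted p = 0.00478). HOXA9 and HOXA10 overlap the antisense gene HOXA10-AS with 13.9% and 16.4% of their exon bases, and whether the counting used the strand is not stated. On the same strand 15.9% and 9.93% of their exon bases overlap other annotated genes, AC004080.3 among them in both.

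HOXA11, a gene of uterine and forearm development, was low in vehicle and stood at 3.77, 3.34 and 3.93 CPM in the EPZ011989 libraries, against 1.05, 0.597 and 0.634 CPM in the vehicle libraries at day 6. By day 12 it was at 1.33, 1.96 and 1.97 CPM in the EPZ011989 libraries, against 0.644, 0.393 and 0.838 CPM in the vehicle libraries. The 3 EPZ011989 libraries were above the 3 vehicle libraries each time, by more at day 6. The log2 fold change was 1.49 ± 0.37 at day 12 (edgeR adjusted p = 0.00265) and 2.27 ± 0.36 at day 6 (edgeR adjusted p = 2.04e-04), and the difference between these did not pass (-0.78 ± 0.52, edgeR adjusted p = 0.235). Of its exon bases 31.1% lie opposite HOXA11-AS.

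HOXA13, which like HOXD13 acts in the digits and genital tubercle, was the posterior gene whose rise was seen at day 6 alone. Levels at day 6 were 16.0, 15.3 and 12.9 CPM in the EPZ011989 libraries, against 7.95, 5.65 and 7.13 CPM in the vehicle libraries. Those at day 12 were 5.53, 7.44 and 6.97 CPM in the EPZ011989 libraries, against 8.63, 7.91 and 7.02 CPM in the vehicle libraries. The EPZ011989 libraries stood above vehicle at day 6 and overlapped it at day 12. The log2 fold change was -0.24 ± 0.17 at day 12 (edgeR adjusted p = 0.216) and 1.09 ± 0.16 at day 6 (edgeR adjusted p = 1.36e-04), and the difference of -1.33 ± 0.23 passed (edgeR adjusted p = 3.00e-04). HOXD13 and HOXC13, its paralogues, were higher at both days.

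Among the central HOXA genes 3 fell at day 6. HOXA5, known from lung development, was at 13.6, 10.8 and 12.2 CPM in the EPZ011989 libraries, against 17.5, 18.2 and 15.7 CPM in the vehicle libraries at day 6. Day 12 gave 11.1, 14.6 and 12.6 CPM in the EPZ011989 libraries, against 20.1, 21.9 and 19.7 CPM in the vehicle libraries. The groups did not overlap on either day. HOXA5 fell by 0.48 ± 0.12 at day 6 (edgeR adjusted p = 0.00628) and by 0.68 ± 0.12 at day 12 (edgeR adjusted p = 1.46e-04).

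HOXA7 was at 53.8, 58.3 and 58.3 CPM in the EPZ011989 libraries, against 78.1, 71.5 and 81.0 CPM in the vehicle libraries at day 6. On day 12 it was at 65.1, 69.8 and 59.5 CPM in the EPZ011989 libraries, against 54.6, 68.5 and 67.7 CPM in the vehicle libraries. The fall seen at day 6 was absent at day 12, when the groups overlapped. In log2 fold change it was 0.03 ± 0.09 at day 12 and -0.44 ± 0.09 at day 6 (edgeR adjusted p = 0.00155), a difference of 0.46 ± 0.13 (edgeR adjusted p = 0.00708). With 62.5% of its exon bases opposite HOXA-AS3, HOXA7 is the HOX gene with the largest antisense overlap.

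HOXA6 was at 7.06, 4.68 and 4.50 CPM in the EPZ011989 libraries, against 8.39, 7.82 and 7.55 CPM in the vehicle libraries at day 6. The corresponding levels at day 12 were 5.94, 6.64 and 6.30 CPM in the EPZ011989 libraries, against 5.99, 8.58 and 7.54 CPM in the vehicle libraries. Treated libraries were below vehicle at day 6, 1 of them only just, and within its range at day 12. It fell by 0.54 ± 0.19 at day 6 (edgeR adjusted p = 0.0420), and its value at day 12 was -0.23 ± 0.19. The day 6 call was lost under 16 of the alternatives tried, among them a stricter low-count filter and 9 of the 12 omissions of single libraries (log2 fold change -0.56 to -0.43 in these 9).

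HOXA2, a gene of the hindbrain near the anterior end, was called at day 12 and not at day 6. It was at 4.12, 3.98 and 5.25 CPM in the EPZ011989 libraries, against 6.46, 5.16 and 5.34 CPM in the vehicle libraries at day 6. At day 12 it was at 2.05, 3.27 and 3.93 CPM in the EPZ011989 libraries, against 5.79, 4.54 and 6.06 CPM in the vehicle libraries. No EPZ011989 library of day 12 reached the vehicle range, whereas 1 of day 6 did. It fell by 0.83 ± 0.25 at day 12 (edgeR adjusted p = 0.00837) and its difference from day 6 (-0.34 ± 0.24) did not pass, at -0.48 ± 0.34 (edgeR adjusted p = 0.271). HOXA3, of thymus and parathyroid development, and HOXA4 were called at neither day. HOXA3 was at -0.23 ± 0.16 and -0.35 ± 0.16, and HOXA4 at 0.00 ± 0.10 and -0.19 ± 0.11, in log2 fold change at day 6 and day 12.

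**Figure D4:**
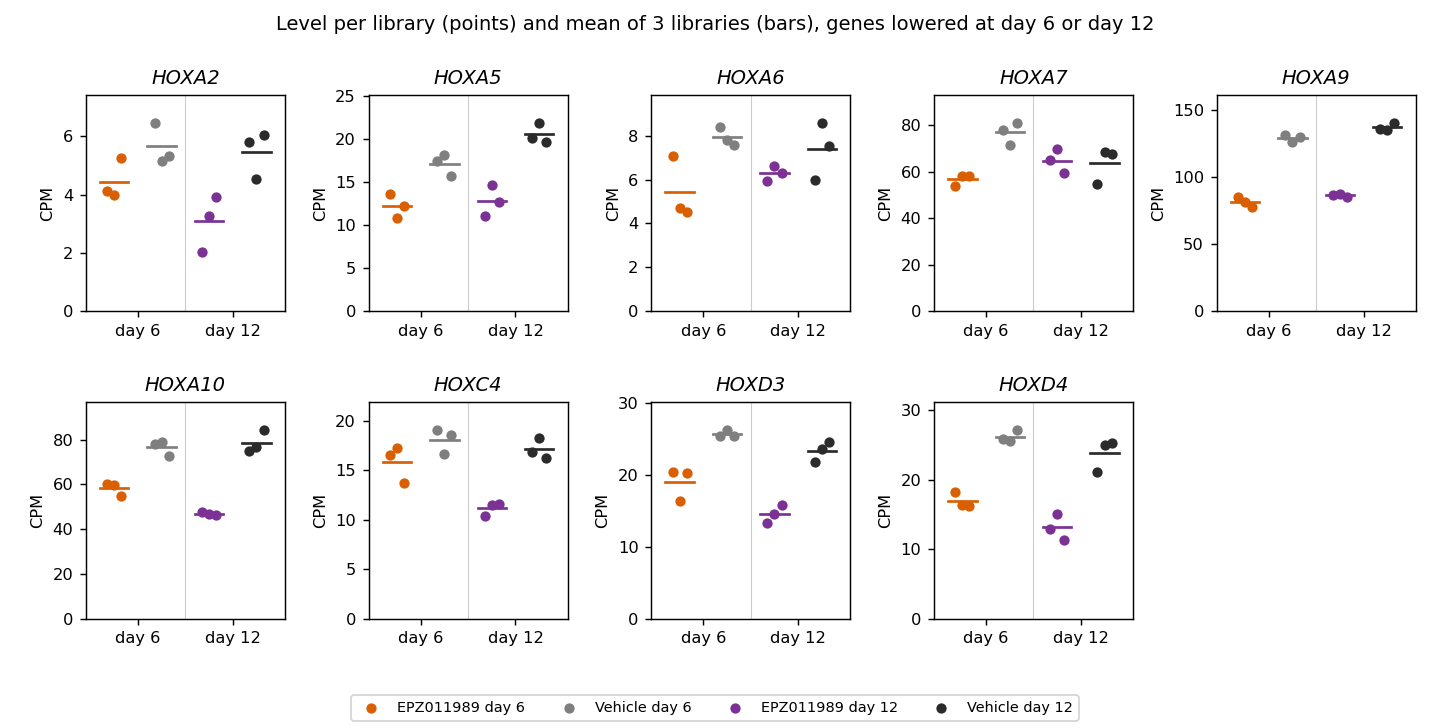
CPM per library (points) and mean of 3 libraries (bars) of the 9 HOX genes called lower at day 6 or day 12, for EPZ011989 and vehicle at each day, each panel with its own axis from 0. HOXA9 lies between 77.9 and 87.4 CPM in the EPZ011989 libraries and between 126 and 140.2 CPM in vehicle, while HOXA7 is lower at day 6 and overlaps vehicle at day 12.

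Within paralogue groups 9 and 10 the clusters did not share a direction. In group 11 the tested genes HOXA11 and HOXD11 rose at both days. HOXD11, and HOXD13 in group 13, entered the test through EPZ011989 libraries alone. Their being higher was thus in part set by the filter. In group 9, HOXA9 fell while HOXC9 and HOXD9 rose, at both days. In group 10, HOXA10 fell while HOXC10 and HOXD10 rose. Group 13 rose in HOXC and HOXD, and in HOXA at day 6, and its HOXB member, HOXB13, a gene of the prostate, had 0 reads in every EPZ011989 library and 3 in vehicle in all. Group 4 had HOXD4 lower at both days, HOXC4 lower at day 12 and HOXA4 not called.

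Across days 8 HOX genes were called higher at both and 5 lower at both. The 8 include HOXD11 and HOXD13, which entered the test through EPZ011989 libraries alone. The share of all tested genes called the same way at both days was not counted. HOXA13 and HOXC6 were called higher at day 6 and did not pass at day 12, HOXA6 and HOXA7 were called lower at day 6 and did not pass at day 12, HOXA2 and HOXC4 were called lower at day 12 alone, and 6 genes were called at neither (HOXA3, HOXA4, HOXC5, HOXC8, HOXD1 and HOXD8). The log2 fold change itself differed between the days in 6 HOX genes, 3 with a higher signed value at day 12 (HOXA7, HOXC13, HOXD9) and 3 with a lower one (HOXA10, HOXA13, HOXC4). Among all tested genes 22.6% had a higher and 25.1% a lower value at day 12, so the HOX share was not above that of all genes.

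**Figure D5:**
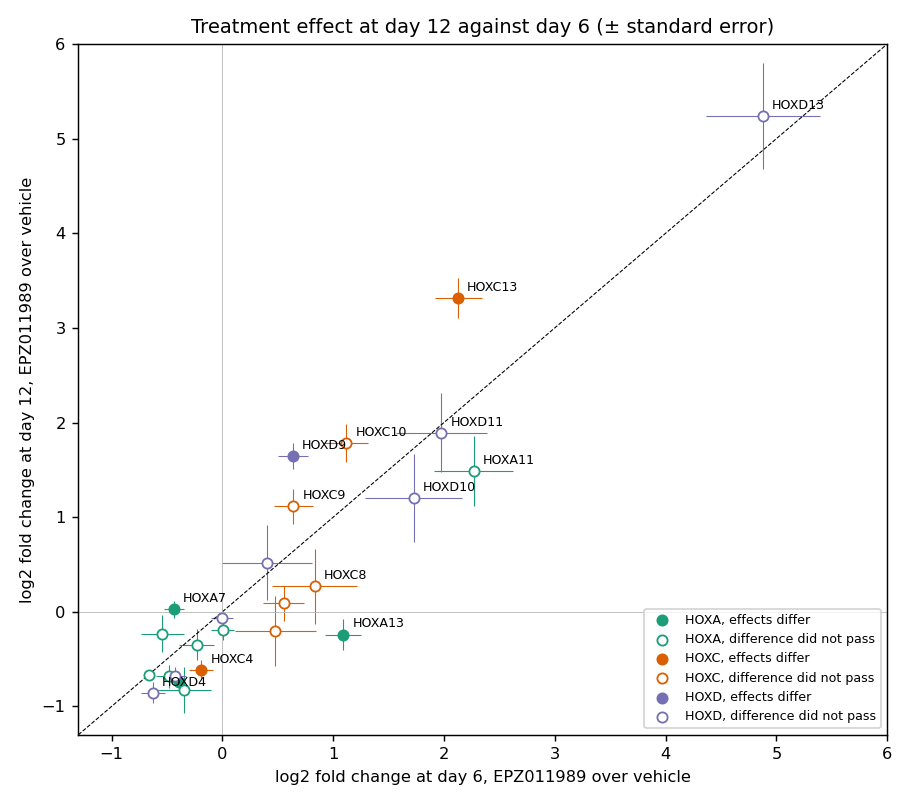
Log2 fold change at day 12 against that at day 6, EPZ011989 over vehicle, for the tested HOX genes shown, with standard errors as bars and the line of equal effects dashed. Filled points are the 6 genes whose effects differed between the days in edgeR's test. HOXC13 (3.31 at day 12, 2.13 at day 6) and HOXD9 (1.65 at day 12, 0.64 at day 6) lie above the line and HOXA13 (-0.24 at day 12, 1.09 at day 6) below it.

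Within EPZ011989, 3 HOX genes were higher at day 12 than at day 6 (HOXC10 at 0.59 ± 0.19, HOXC13 at 1.22 ± 0.19 and HOXD9 at 0.58 ± 0.13, log2 of day 12 over day 6), where 27.8% of all tested genes were. Another 7 were lower at day 12, where 29.8% of all tested genes were, and these were HOXA10, HOXA11, HOXA13, HOXC4, HOXC6, HOXD3 and HOXD4. Of the 7, HOXA13 at -1.15 ± 0.16 and HOXA11 at -1.07 ± 0.33 had the largest values. The calls of HOXC10, HOXA11, HOXC6 and HOXD4 were lost without 1 or another single library, and that of HOXD3 with transcript lengths as an offset (-0.28, edgeR adjusted p = 0.168) and in the authors' table (-0.25 with a pseudocount of 1). HOXA7, not called, was called higher under some alternatives, among them without Vehicle day 12 replicate 1 (0.19, edgeR adjusted p = 0.0294). In vehicle edgeR called 0 of the 26 HOX genes between the days, where 13.2% of all tested genes were called. At an unadjusted p under 0.05 there were 4, and the DESeq2 test called 2, HOXA7 at -0.26 and HOXD9 at -0.42.

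Summed by cluster, HOXA was lower and HOXC higher in EPZ011989 than in vehicle. HOXA genes together gave 265 ± 6.61 CPM in EPZ011989 and 350.1 ± 6.84 CPM in vehicle libraries at day 6, and 255 ± 9.0 CPM in EPZ011989 and 351 ± 15.5 CPM in vehicle libraries at day 12 (SD, n = 3). HOXC gave 46.7 ± 3.21 CPM in EPZ011989 and 34.1 ± 0.815 CPM in vehicle libraries at day 6, and 50.3 ± 3.00 CPM in EPZ011989 and 31.7 ± 0.542 CPM in vehicle libraries at day 12. For both clusters the difference was larger than the SD of either group, and no test was run on these sums. A sum weighs genes by their level and does not describe each gene of a cluster. HOXA9 alone averaged 81.4 CPM in EPZ011989 and 129 CPM in vehicle libraries at day 6. Its means at day 12 were 86.3 CPM in EPZ011989 and 137 CPM in vehicle libraries. HOXD was at 86.5 ± 2.12 CPM in EPZ011989 and 88.5 ± 1.47 CPM in vehicle libraries at day 6, and at 84.6 ± 4.05 CPM in EPZ011989 and 81.2 ± 6.09 CPM in vehicle libraries at day 12, where the fall of HOXD3 and HOXD4 and the rise of HOXD9 to HOXD13 nearly offset each other. In bulk RNA a change in how many cells express a gene cannot be told apart from a change in the RNA per cell.

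Rise and fall were also related to the level in vehicle. Taking the level from the vehicle libraries of the other day, which the contrast does not use, Spearman's rho with the log2 fold change over the 26 genes was -0.84 at day 6 and -0.73 at day 12, and over all 15015 tested genes it was -0.28 at day 6 and -0.39 at day 12. Without HOXD11 and HOXD13, which passed the filter through EPZ011989 libraries alone, the value over 24 HOX genes was -0.80 at day 6 and -0.66 at day 12. Of the 9 HOX genes under 2 CPM, 5 were called higher and 0 lower at day 6, where 22.5% of the 2808 genes of that level were called higher and 1.18% lower. Without the same pair it was 3 of 7 higher. All 3 HOX genes over 50 CPM (HOXA7, HOXA9 and HOXA10) were called lower at day 6, where 30.6% of the 5164 genes of that level were. Between 2 and 10 CPM, 5 of 7 HOX genes were called higher at day 6, where 24.4% of 2247 genes were, and between 10 and 50 CPM 0 of 7 were higher and 3 lower, where 16.0% of 4796 genes were higher and 17.1% lower. At day 12, under 2 CPM, 6 of 9 HOX genes were higher (4 of 7 without the pair), where 45.7% of all genes were, and between 2 and 10 CPM 2 of 6 were, where 42.1% were. Between 10 and 50 CPM 1 of 8 was higher and 4 lower, where 32.9% of all genes were higher and 34.9% lower, and over 50 CPM 2 of 3 were lower, where 54.1% were. The rho and shares over all tested genes keep every gene that passed the filter through EPZ011989 libraries alone. The HOX values without the pair thus have no matching reference. The parts of level and position in the pattern were not separated. Low counts also limit which falls a test can find.

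Markers of leukocytes and endothelial cells were low, and those of fibroblasts were higher than either. The leukocyte list (6 genes) summed to 0.614 to 1.47 CPM in EPZ011989 and 0 to 1.85 CPM in vehicle libraries, and its 1 tested member was not called. The endothelial list (5 genes) summed to 1.33 to 1.99 CPM in EPZ011989 and 1.55 to 2.38 CPM in vehicle libraries at day 6, and to 2.35 to 3.32 CPM in EPZ011989 and 2.00 to 3.35 CPM in vehicle libraries at day 12. Of its 3 tested members VWF and PECAM1 were called higher and TEK lower, at day 12 alone. The 6 fibroblast markers summed to 21.7 to 29.8 CPM in EPZ011989 and 14.9 to 20.2 CPM in vehicle libraries at day 6, and to 18.2 to 20.9 CPM in EPZ011989 and 9.67 to 14.2 CPM in vehicle libraries at day 12, with DCN called higher at both days and COL1A1 at day 12. All 6 had reads in every group except 1 in Vehicle day 12. Fibroblasts from different body sites carry different HOX genes, and the part of these markers in the HOX values was not tested.

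Partners of HOX proteins were examined through the TALE homeobox genes, whose products bind DNA together with them. All 9 were tested, and 3 rose and 1 fell at day 6, while 5 rose and the other 4 were not called at day 12, where 17.2% of all tested genes rose and 17.0% fell at day 6 and 33.7% rose and 33.3% fell at day 12. MEIS1, a partner of HOXA9 in leukaemia, averaged 14.3 ± 1.49 CPM in EPZ011989 and 7.42 ± 0.409 CPM in vehicle libraries at day 6 (log2 fold change 0.95 ± 0.14, edgeR adjusted p = 1.24e-04) and 20.9 ± 1.69 CPM in EPZ011989 and 9.51 ± 1.78 CPM in vehicle libraries at day 12 (log2 fold change 1.14 ± 0.14, edgeR adjusted p = 3.90e-06). PKNOX2 averaged 2.41 ± 0.0957 CPM in EPZ011989 and 1.07 ± 0.264 CPM in vehicle libraries at day 6 (log2 fold change 1.17 ± 0.38, edgeR adjusted p = 0.0291) and 8.07 ± 0.636 CPM in EPZ011989 and 0.927 ± 0.687 CPM in vehicle libraries at day 12 (log2 fold change 3.12 ± 0.39, edgeR adjusted p = 5.56e-06). MEIS3 rose at both days and averaged 0.723 CPM in EPZ011989 against 0.0544 CPM in vehicle at day 6 and 1.82 CPM in EPZ011989 against 0.0588 CPM in vehicle at day 12. These vehicle means lay under the filter's minimum of 0.545 CPM. The rise of MEIS3, which the tallies of both days count, was thus in part set by the filter. PBX2 was higher at day 12 (log2 fold change 0.76 ± 0.21, edgeR adjusted p = 0.00601).

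Of 16 known regulators of HOX transcription outside the Polycomb repressive complexes PRC1 and PRC2, 10 were tested, with 1 higher and 3 lower at day 6 and 4 higher and 4 lower at day 12, the last close to the 33.7% higher and 33.3% lower of all genes. KDM6B, a demethylase of the mark that EZH2 sets, averaged 104 ± 4.41 CPM in EPZ011989 and 89.5 ± 2.92 CPM in vehicle libraries at day 6 (log2 fold change 0.21 ± 0.08, edgeR adjusted p = 0.0491) and 195 ± 8.57 CPM in EPZ011989 and 78.3 ± 10.9 CPM in vehicle libraries at day 12 (log2 fold change 1.32 ± 0.08, edgeR adjusted p = 1.64e-09). CTCF, which insulates domains within HOX clusters, averaged 131 ± 1.66 CPM in EPZ011989 and 144 ± 2.21 CPM in vehicle libraries at day 6 (log2 fold change -0.14 ± 0.04, edgeR adjusted p = 0.0271) and 92.1 ± 1.27 CPM in EPZ011989 and 156 ± 7.95 CPM in vehicle libraries at day 12 (log2 fold change -0.76 ± 0.04, edgeR adjusted p = 1.31e-09). KMT2A, the MLL methyltransferase that maintains HOX expression, was lower at day 12 (log2 fold change -0.43 ± 0.05, edgeR adjusted p = 1.61e-06), and CYP26B1, an enzyme that degrades retinoic acid, was higher at day 12 (log2 fold change 0.94 ± 0.10, edgeR adjusted p = 8.54e-07). ASXL1 (log2 fold change -0.23 ± 0.05, edgeR adjusted p = 0.00254) and BAP1 (log2 fold change -0.24 ± 0.05, edgeR adjusted p = 0.00349), which form the Polycomb deubiquitinase of histone H2A, were lower at day 6.

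Of 22 genes that flank the clusters 16 were tested, with 5 higher and 3 lower at day 6, where 17.2% of all genes were higher and 17.0% lower, and 5 higher and 7 lower at day 12, where 33.7% were higher and 33.3% lower. Next to the silent HOXB cluster, TTLL6, which adds glutamate chains to tubulin, averaged 1.25 ± 0.112 CPM in EPZ011989 and 0.197 ± 0.173 CPM in vehicle libraries at day 6 (log2 fold change 2.62 ± 0.60, edgeR adjusted p = 0.00388) and 4.83 ± 0.731 CPM in EPZ011989 and 0.177 ± 0.142 CPM in vehicle libraries at day 12 (log2 fold change 4.68 ± 0.60, edgeR adjusted p = 7.25e-06). Its vehicle means lay under the filter's minimum of 0.545 CPM. The rise of TTLL6, which the tallies of both days count, was thus in part set by the filter. CALCOCO2, an autophagy receptor on the same side, was higher at both days (log2 fold change 0.75 ± 0.05, edgeR adjusted p = 7.68e-08 and log2 fold change 1.42 ± 0.05, edgeR adjusted p = 1.02e-11). Beside HOXC, CALCOCO1 was higher at both days (log2 fold change 0.27 ± 0.06, edgeR adjusted p = 0.00417 and log2 fold change 1.71 ± 0.06, edgeR adjusted p = 8.04e-12), and CBX5, a heterochromatin protein, was lower at day 12 (log2 fold change -0.65 ± 0.03, edgeR adjusted p = 4.82e-10). TAX1BP1, another autophagy receptor, near HOXA, was higher at day 6 (log2 fold change 0.46 ± 0.06, edgeR adjusted p = 6.66e-05). None of the 8 ParaHox and EVX genes, the nearest relatives of the clusters, had enough reads to be tested.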

How the data were processed

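RNA of MKL-1 cells was measured in 12 libraries, grouped by the sample titles. Per the submitters' processing notes the authors used Salmon 1.2.0, FastQC, DESeq2 and the build hg38, in no stated order. The deposited files hold estimated counts, TPM and effective lengths per transcript, as Salmon gives them per the file headers. The authors' gene table of the series holds a normalized signal, whose normalization no source used here gives, and it served for the choice of members and as an alternative.

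Of 179883 transcripts 168180 (93.5%) were matched to genes of the GENCODE annotation by identifier. Estimated counts were summed per gene (35316 genes) and rounded, and unmatched transcripts held 3.11 to 3.62% of reads. For the 26 tested HOX genes the summed level was 1.01 to 1.07 times the authors' signal. Long noncoding and antisense RNAs of the clusters were not analysed here.

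Genes were filtered with filterByExpr, scaled by TMM and tested with the two-sided quasi-likelihood test of edgeR 4.0.16 under R 4.3.3, fitting the 4 groups together and adjusting p by Benjamini-Hochberg over all 15015 tested genes. The common biological coefficient of variation was 10.1%. Standard errors were obtained from the F statistic, as the log2 change over its square root. The 5 contrasts were treatment at each day, their difference, and day 12 against day 6 in EPZ011989 and in vehicle. Scripts were tested on simulated counts. Floors of 3 reads and intervals cover counting error only.

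Members, gene lists and the cell markers were chosen with earlier results of these data known. All HOX genes enter the counts, and 1 of them and 1 gene of the TALE list are not reported here. Values in every library are given for those called in a treatment contrast or the difference with a mean of 1 CPM or more in 1 group, and up to 4 called members of each list and contrast, by smallest p, are named. HOXD8, HOXD12, HOXC11 and HOXC12 are given beside their neighbours. Alternatives were DESeq2 1.42.0 size factors and test, library totals, no filter and a stricter filter, the libraries of a contrast alone, transcript lengths as an offset, limma 3.58.1 on the authors' signal (log2 of value + 1 or + 5), the replicate number as a block, and each library left out. Tallies without HOXD11 and HOXD13 were added after the data were seen.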

Additional observations from a re-analysis of the deposited data

Results flagged for a closer look

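The log2 fold change under EPZ011989 differed between the days in 6 HOX genes, by edgeR's test of the difference itself (log2 fold change at day 12 minus that at day 6), where 22.6% of all tested genes had a higher and 25.1% a lower value at day 12. The signed value was higher at day 12 by 0.46 ± 0.13 in HOXA7, whose fall at day 6 was not seen at day 12, by 1.19 ± 0.30 in HOXC13 and by 1.01 ± 0.19 in HOXD9, both of which were higher at both days. It was lower at day 12 in HOXA10 (-0.35 ± 0.09), which fell further, in HOXA13 (-1.33 ± 0.23), whose rise was called at day 6 alone, and in HOXC4 (-0.43 ± 0.15), whose fall was called at day 12 alone. The HOXC4 difference was not called with no low-count filter (-0.45), with transcript lengths as an offset (-0.26), in the authors' table (-0.24) or without any 1 of 5 single libraries.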

How the results depend on the processing

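No called value changed sign under any alternative, and the calls at day 6, at day 12, for the difference and within EPZ011989 stayed within 1.5 times their counts in each direction. Of 49 calls in single genes 39 passed under every alternative, namely 14 of 17 at day 6, 15 of 16 at day 12, 5 of 6 for the difference and 5 of 10 for day 12 against day 6 in EPZ011989. In vehicle, the count of HOX genes lower at day 12 than at day 6 was 0, and it was 2 with no low-count filter, 2 by the DESeq2 test, 1 with the replicate block and 0 to 1 with single libraries left out, with HOXA7 or HOXD9 called. The cause was not tested. Same-numbered libraries correlated at -0.05 to 0.09 after removal of group means, so the numbers were not taken to pair libraries, and 6 of 12 libraries were closest to their own number. The block left 10 HOX genes higher and 6 lower at day 6, and 9 higher and 7 lower at day 12. Of the genes not called, 29 values changed sign under some alternative without a call. Depth limits the silent and low genes, for which a few reads decide the value.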
